A study of Mus musculus with 3 samples.

Results

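The genes described here are microRNA genes that held an AGO2 HITS-CLIP peak in mouse P19 cells, other than the miR-302 and miR-290 clusters, the miR-92, miR-93 and miR-25 genes, the miR-181 genes, miR-182 and miR-183, let-7, and the genes Mir6236 and Mir6240. A gene was taken if its RefSeq span held the midpoint of a peak from any of 4 peak lists, on either strand. Of 1228 annotated microRNA genes, 52 held such a midpoint (4.23%), and after the named genes were left out 28 remained. They held 46 of the 6911 peaks. Having a peak is thus what chose these genes and is not a result about them.

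P19 is a mouse embryonal carcinoma line. In HITS-CLIP, RNA is crosslinked to its protein in the cell, the protein is recovered with an antibody, here clone 2D4 against AGO2, and the attached RNA fragments are sequenced. The 3 libraries, CLIP_AGO2 replicates 1 to 3, form 1 group. The labels name no treatment and no growth conditions, and there is nothing to set the libraries against. The measurements used were 4 peak lists for the series as a whole, from the callers CIMS, Piranha, Pyicoclip and PIPE-CLIP, so no value per library, no depth and no spread between libraries can be given, and no comparison was tested. The lists came from the same libraries and are not replicates. Markers of the line could be checked only as the presence of a peak. Of 13 pluripotency genes, 6 held one: Lin28a, Pou5f1, Lefty1, Mir302a, Mir302b and Mir302d. Sox2, Nanog, Mir302c, Mir290a, Mir291a, Mir294 and Mir295 held none. Over all genes, 9.77% of protein-coding and 4.23% of microRNA genes held a peak.

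MicroRNAs are cut from a hairpin within a longer transcript by Drosha and then Dicer. The cut leaves a short duplex, and as a rule 1 of its strands, from the 5p or the 3p arm of the hairpin, is kept in an Argonaute protein. The bases near the 5′ end of the kept strand, the seed, pair with target RNAs. A read from AGO2 HITS-CLIP can therefore come from the bound microRNA itself as well as from its target.

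The mature sequences printed first are those that lay whole under a Pyicoclip peak and that show a shared seed, a family tie or an arm described below. They are RefSeq sequences of build GRCm38.p6, which shares its coordinates with mm10, written 5′ to 3′ with bases 2 to 8, the seed, in capitals. The first 3 belong to the miR-10 and miR-99 families. The next 4 are miR-16-5p of the miR-15/16 family, miR-17-3p of the miR-17-92 cluster, miR-363-3p with the seed of miR-25 and miR-92, and miR-301a-3p with the seed of miR-130. The next 3 come from imprinted loci, and the last 4 from other genes found by both Piranha and Pyicoclip.
miR-10b-5p: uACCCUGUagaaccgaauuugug
miR-99a-5p: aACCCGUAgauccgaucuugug
miR-99b-5p: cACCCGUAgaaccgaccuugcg
miR-16-5p: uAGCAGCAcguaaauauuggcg
miR-17-3p: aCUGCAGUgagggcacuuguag
miR-363-3p: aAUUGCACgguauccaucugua
miR-301a-3p: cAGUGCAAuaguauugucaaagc
miR-296-3p: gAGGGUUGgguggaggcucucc
miR-298-5p: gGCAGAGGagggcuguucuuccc
miR-541-5p: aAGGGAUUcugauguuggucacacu
miR-34b-5p: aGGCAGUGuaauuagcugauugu
miR-101a-3p: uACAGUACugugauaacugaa
miR-22-3p: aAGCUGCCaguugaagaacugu
miR-21a-5p: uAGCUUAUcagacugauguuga

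Pyicoclip gave 27 of the 46 peaks, Piranha 17 and PIPE-CLIP 2, and CIMS gave none. These were 1.31% of the 2068 Pyicoclip peaks, 1.20% of the 1417 Piranha peaks and 0.0614% of the 3257 PIPE-CLIP peaks. The CIMS list holds only 169 peaks, so its lack of a peak here is not read as a result. Peaks of both Piranha and Pyicoclip lay in 17 of the 28 genes, Pyicoclip peaks alone in 9, and PIPE-CLIP clusters alone in 2, Mir7068 and Mir1893. None of the other 26 genes was overlapped by a CIMS or PIPE-CLIP peak by even 1 nt. The 17 genes in at least 2 lists stand beside 44.5% of all genes with a peak, and beside 20 of the 24 microRNA genes left out by name. Where the sequence table gives the strand of the gene, 39 peaks were on that strand, 0 on the other, and 1, the Pyicoclip peak of Mir301, had no strand.

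**Figure D1:**
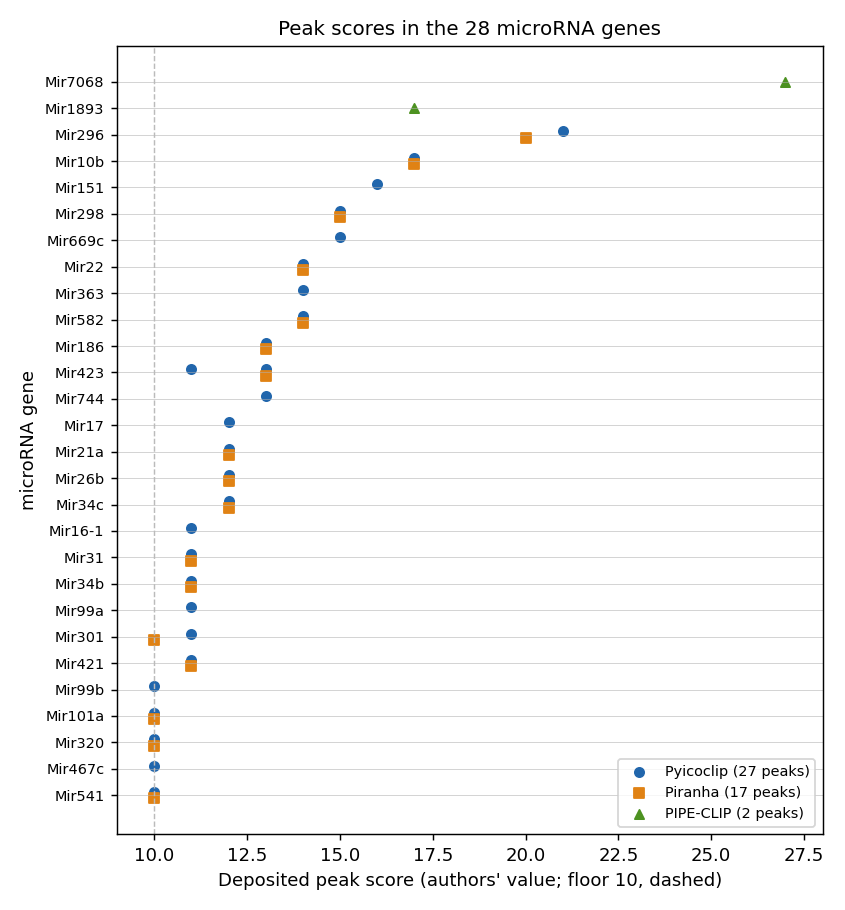
Deposited score of each peak (horizontal axis, the authors' value, with the floor of 10 dashed) for the 28 microRNA genes (vertical axis, with the 2 of PIPE-CLIP on top), with circles for Pyicoclip, squares for Piranha and triangles for PIPE-CLIP. Within its list, Mir296 scores highest in Pyicoclip, at 21, and in Piranha, at 20, and most pairs of circle and square stand at the same score.

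The deposited score has no stated unit, so it serves here only to order the peaks of 1 list. Mir296, which lies with Mir298 at the imprinted Gnas locus, had the highest score of these genes in Pyicoclip, 21, and in Piranha, 20. Of each list, 88.3% and 91.9% of peaks scored lower. Mir10b followed with 17 in both lists, and Mir151, a microRNA within the focal adhesion kinase gene Ptk2, scored 16 in Pyicoclip. Mir298 and Mir669c scored 15. At the other end, Mir99b, Mir101a, Mir320, Mir467c and Mir541 stood at the floor of 10, so they had the lowest scores that the lists hold. The Piranha peak of Mir301 was also at 10, while its Pyicoclip peak scored 11. The median Pyicoclip score was 12 for these peaks, 12 for the whole list and 15.5 for the microRNA genes left out by name, whose highest peak reached 151. These microRNAs thus ranked in the middle of the list.

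Pyicoclip peaks framed the mature microRNA closely. For 21 of the 27 peaks a mature sequence is listed under the peak, and all 21 covered it whole. The peak began 1, 2 or 3 nt before the 5′ end of the mature sequence in 20 of the 21, at 2 nt in 12 of them. It ended 1 to 5 nt after the 3′ end in 20, with a median of 4 nt. Both held for 19 peaks. The peak of miR-10b-5p, for example, began 2 nt before and ended 5 nt after the mature sequence, chr2:74726074-74726096, and that of miR-744-5p began 2 nt before and ended 1 nt after. The members were chosen by the midpoint of the peak lying in the hairpin, which does not fix where the ends fall.

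**Figure D2:**
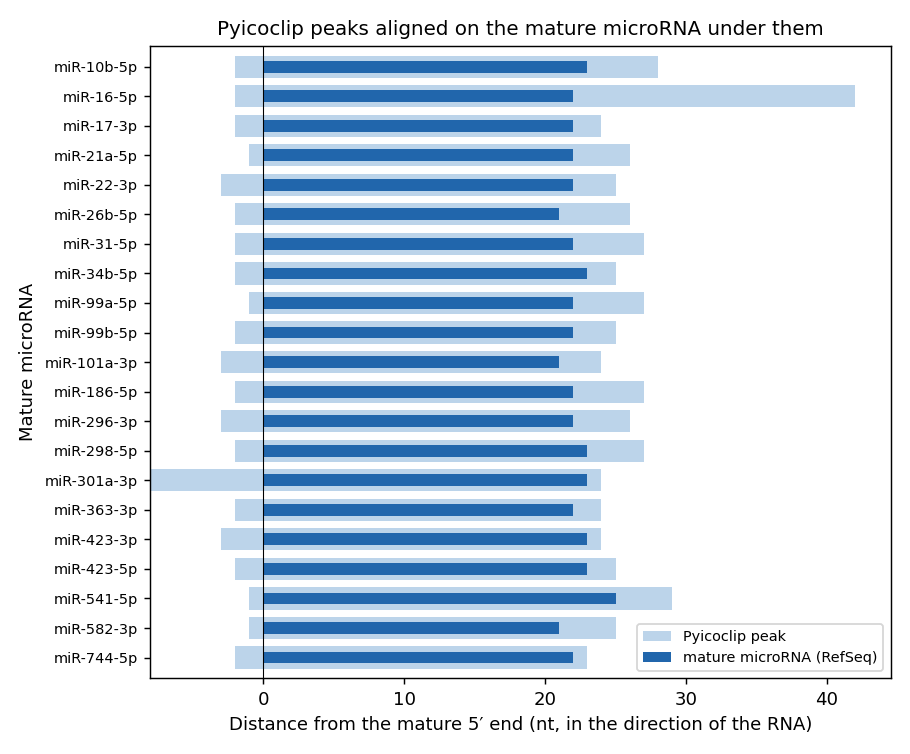
Extent of 21 Pyicoclip peaks (light bars) and of the mature microRNA under each (dark bars), aligned on the mature 5′ end, with distance in nt along the RNA. The starts of 20 peaks fall 1 to 3 nt before the mature sequence, with miR-301a-3p at 8 nt, and the peak of miR-16-5p runs 20 nt beyond the 3′ end.

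The 2 peaks outside this frame were those of Mir301 and Mir16-1. The Mir301 peak, the one with no strand, began 8 nt before miR-301a-3p and ended 1 nt after it. Mir16-1, a member of the miR-15/16 family that restrains cyclins and Bcl2, had a peak of 44 nt that began 2 nt before miR-16-5p and ran 20 nt beyond it through the loop. It stopped 1 nt from the first base of the 3p arm. The same mature sequence is also encoded by Mir16-2, so reads of miR-16-5p itself cannot be told apart between these loci, and Mir16-2 held no peak. For the microRNA genes left out by name, 11 of 26 such pairs of peak and mature sequence met both limits, with a median start of 2.5 nt before and a median end of 4 nt after. The limits are the ranges that held 20 of the 21 peaks described here at each end, so this count favours the genes described. Peaks outside the limits included those of Mir6236, which began 84 to 109 nt before, and of Mir6240, which ended 48 nt after. Others came close, as the peaks of Mir181b-1, Mir182 and Mir183 began 4 nt before and that of Mirlet7e ended 6 nt after. The difference was not tested, and it does not set the 2 sets of genes apart.

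Peak widths kept to a narrow range. The 27 Pyicoclip peaks ran from 25 to 45 nt with a median of 28, against 29 for the whole list, which ran from 18 to 1252 nt. Widths of at most 30 nt were found in 23 of the 27, against 52.0% of all Pyicoclip peaks and 14 of 28 in the microRNA genes left out by name. Those left out include Mir6236 and Mir6240, with peaks of 84 to 127 nt, so leaving genes out by name removed wide peaks. The widest was that of Mir320 with 45 nt, followed by Mir16-1 with 44 nt. Mir320 is known for a precursor that is made without Drosha, and its Pyicoclip and Piranha peaks both scored 10.

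**Figure D3:**
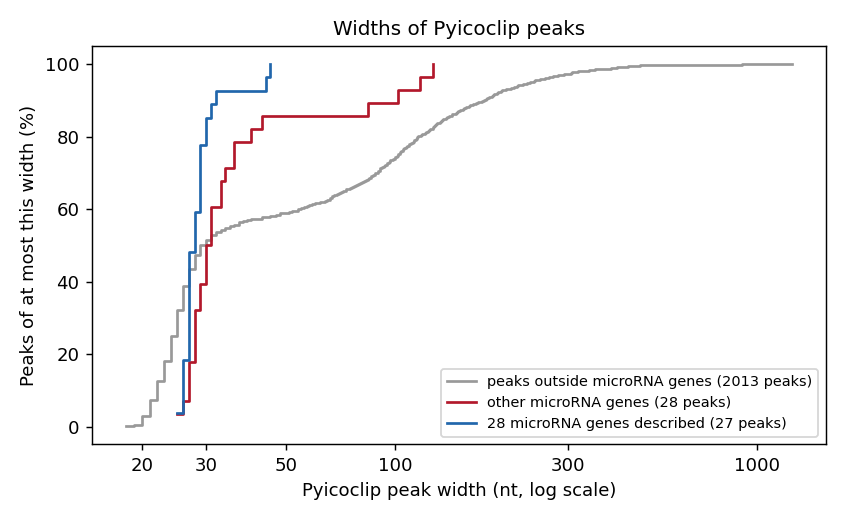
Cumulative share of Pyicoclip peaks (vertical axis, percent) by peak width (horizontal axis, nt, log scale) for the 28 genes described, the other microRNA genes and peaks outside microRNA genes. The curve of the 27 peaks of the genes described starts at 25 nt and ends at 45 nt, while peaks outside microRNA genes run from 18 to 1252 nt.

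Mostly 1 arm of each hairpin held a Pyicoclip peak. The list holds no peak with a score under 10, and the median score of these peaks was 12. An arm without a peak is therefore not shown to be unbound. Both arms are listed for 20 of the genes, and a Pyicoclip peak lay over 1 arm in 18 of them, 12 times the 5p and 6 times the 3p arm. Mir7068 had no Pyicoclip peak. Mir423 was the only one with peaks over both arms. Its hairpin, chr11:77078064-77078172 on the minus strand, lies within the span of Nsrp1, a splicing regulator gene on the same strand. It is shown because the capitals mark 2 mature sequences that were each whole under a peak of their own, miR-423-5p first and miR-423-3p after it.
Mir423 hairpin: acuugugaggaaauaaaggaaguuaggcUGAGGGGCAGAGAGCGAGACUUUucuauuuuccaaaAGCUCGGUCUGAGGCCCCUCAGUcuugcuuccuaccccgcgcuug
The 3p peak of Mir423 scored 13 in Pyicoclip and 13 in Piranha, and the 5p peak scored 11 in Pyicoclip with no Piranha peak. Each Pyicoclip peak was 27 nt wide.

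**Figure D4:**
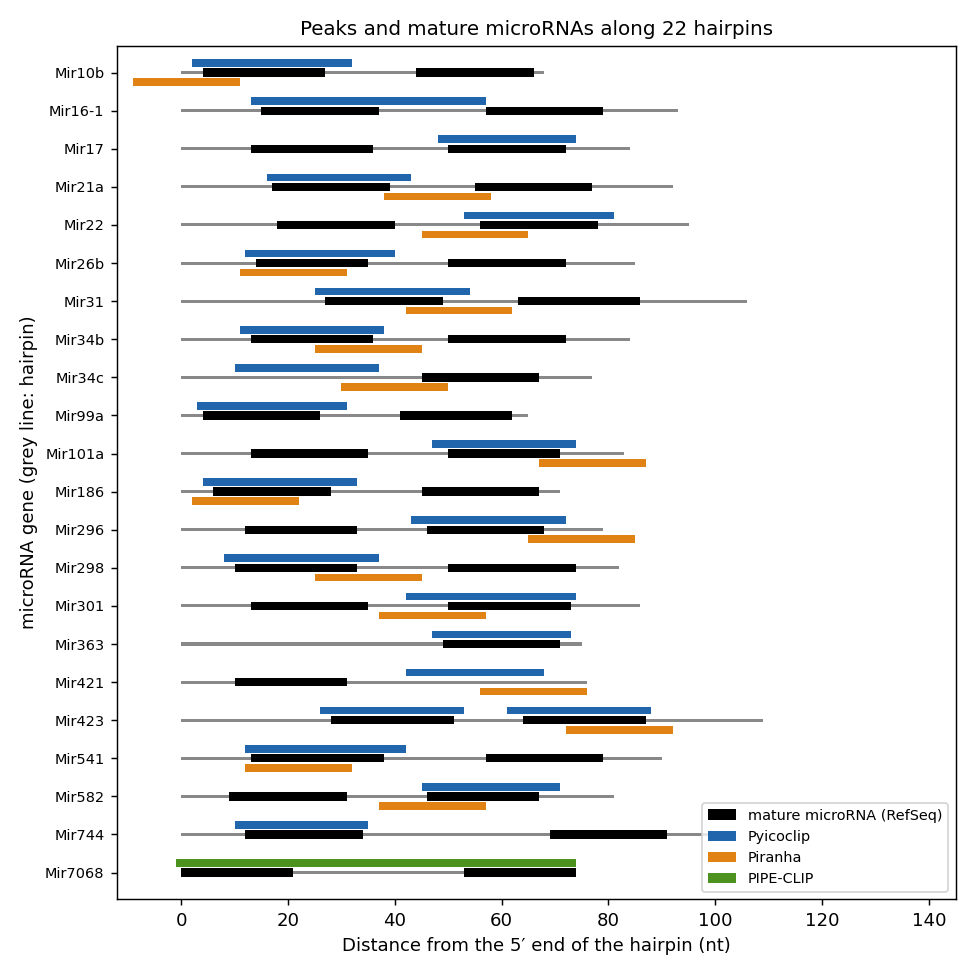
Peaks along the 22 hairpins listed in RefSeq, as distance in nt from the hairpin 5′ end, with the hairpin as a grey line and mature sequences in black. Where a mature sequence is listed under a Pyicoclip bar, the bar sits on 1 arm, with a second bar in Mir423, Piranha bars are shifted to either side of them, and the PIPE-CLIP cluster covers the whole of Mir7068.

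Mir17 had its peak on the 3p arm. The gene opens the miR-17-92 cluster on chromosome 14, and its 5p strand is the one that gives the miR-17 family its usual seed. The Pyicoclip peak of 26 nt, with a score of 12, covered miR-17-3p whole, and no peak of any list overlapped miR-17-5p. A peak over miR-17-5p with a score under 10 would not be listed. Of the 5 other microRNA genes within 10 kb of Mir17, Mir92-1 alone held a peak. Mir363 lies in the paralogous cluster on the X chromosome. Its peak of 26 nt and score 14 covered miR-363-3p, the only mature sequence listed for it, so its arms cannot be compared. Of its 5 neighbours Mir92-2 alone held a peak. The Pyicoclip peaks of Mir92-1 and Mir92-2 both lay over miR-92a-3p, so reads of that sequence itself cannot be told apart between these loci. The seed of miR-363-3p, AUUGCAC, is shared, among others, with miR-25-3p, miR-92a-3p and miR-92b-3p, whose genes Mir25, Mir92-1, Mir92-2 and Mir92b also held peaks. A Piranha bin with a score of 13 overlapped Mir363 by 8 nt, with its midpoint outside the gene.

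The miR-10 and miR-99 families share much of their 5′ end, as printed first. Mir10b lies in the Hoxd cluster, chr2:74726070-74726137, within the spans of Hoxd3 and Hoxd4, transcription factor genes that pattern the body axis. Of 6 annotated Hox cluster microRNA genes it was the 1 with a peak, a share of 16.7% beside 4.23% of all microRNA genes. Mir10b was known to hold a peak when the groups were drawn up, so a count of at least 1 was fixed beforehand. The share is not read as a result about Hox cluster microRNAs. Mir99a and Mir99b carry the same seed, ACCCGUA, and each had a Pyicoclip peak alone, with scores of 11 and 10 and widths of 28 and 27 nt. Both are clustered with let-7 genes that held peaks as well, Mirlet7c-1 at 657 nt and Mirlet7e at 95 nt. Mir125a, the remaining neighbour of Mir99b, held none.

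Mir34b and Mir34c are transcribed together and are known as targets of p53. Both had peaks in Piranha and Pyicoclip, with scores of 11 in both lists for Mir34b and 12 in both lists for Mir34c. The Pyicoclip peak of Mir34b covered miR-34b-5p whole, from 2 nt before to 2 nt after. For Mir34c the listed mature sequence, miR-34c-3p, was not under the Pyicoclip peak, which lay 5′ of it. The 2 genes are 452 nt apart within the spans of Hoatz, on their own strand, and Btg4, on the opposite strand.

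Genes at imprinted loci formed another group. Mir296 and Mir298 are 379 nt apart, and their peaks lay on different arms, with miR-296-3p and miR-298-5p each whole under a Pyicoclip peak of 29 nt. Mir298 scored 15 in both lists. Mir541 was the only 1 of 45 annotated microRNA genes of the Dlk1-Dio3 region with a peak, a share of 2.22% beside 4.23% of all microRNA genes. Like Mir10b, Mir541 was known to hold a peak when the groups were drawn up. Its peaks, both at the floor of 10, lay on miR-541-5p, and its 13 microRNA neighbours within 10 kb held none. Mir467c and Mir669c lie in Sfmbt2, an imprinted gene which holds a large array of related microRNAs. They had a Pyicoclip peak each, of 29 nt with a score of 10 and of 31 nt with a score of 15. Their 28 and 23 microRNA neighbours within 10 kb held no peak, but the array holds near-identical copies, so the gene of origin is uncertain for both.

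The group called widely expressed microRNAs had the most annotated genes of the 8 compared. It had peaks in 12 of 48, or 25%, beside 4.23% of all microRNA genes. The groups were drawn up with earlier results of these data known, so a higher share may be built in. None of the 12 was left out by name, while the 4.23% includes genes that were. The group takes in Mir34b and Mir34c, and how widely any of these microRNAs is expressed was not measured here. Mir21a, a microRNA raised in many tumours, scored 12 in both lists, and Mir22 scored 14 in both. Mir26b and Mir101a, from families known to target the Polycomb gene Ezh2, scored 12 and 10 in both lists. Mir31 scored 11 and Mir186 scored 13, again the same in both. Outside the 8 groups, Mir582 scored 14 in both lists, with miR-582-3p under the peak, and Mir744 scored 13 in Pyicoclip alone. Mir301, of the miR-130 seed family, scored 11 in Pyicoclip and 10 in Piranha. Mir421, in the X-linked long non-coding RNA gene Ftx, scored 11 in both, with a Pyicoclip peak away from its listed mature sequence.

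No peak lay in any of 21 annotated neural microRNA genes, such as the Mir9 genes, 10 muscle microRNA genes, such as Mir1a-1 and Mir206, or 5 miR-200 family genes. The miR-15/16 family had 1 of 8 and the remaining miR-17 family and cluster partners 2 of 10. Each count stands beside 4.23% of all microRNA genes. In groups this small a count of 0 is near that share and sets none of them apart. A single gene moves the share of such a group far, so the counts of 1 and 2 set none apart either. Of 24 neural symbols, 21 matched an annotated gene. The Mir124 symbols among the neural markers matched none and were not checked. The deposited lists hold no peak with a score under 10, so a gene without a peak is not shown to be without its microRNA. These counts are descriptions of presence in a list, with no test.

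**Figure D5:**
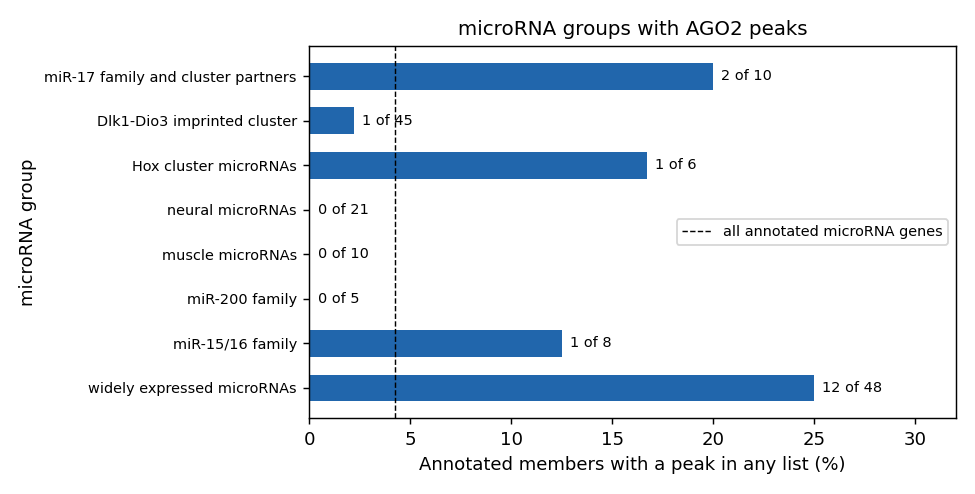
Share of annotated genes with a peak in any list (horizontal axis, percent) for 8 groups of microRNA genes, with the counts beside the bars and the share of all annotated microRNA genes, 4.23%, dashed. The list called widely expressed microRNAs stands at 12 of 48, and the neural, muscle and miR-200 groups at 0. The groups were drawn up with earlier results of these data known.

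The 21 mature sequences under Pyicoclip peaks had 20 distinct seeds. Of these sequences, 8 started with U, 8 with A, 3 with C and 2 with G, beside 41.3%, 25.5%, 20.4% and 12.8% of the 1738 listed mouse mature sequences. Their GC content ran from 33.3% in miR-26b-5p and miR-101a-3p to 68.2% in miR-296-3p, with a median of 45.5%, beside a median of 52.2% over all listed sequences.

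The letters GGAG, the motif that LIN28 binds in let-7 precursors, were searched in the hairpin strand only. They were found in 4 of 22 listed hairpins of these genes, those of Mir296, Mir298, Mir31 and Mir363, beside 44.5% of 1005 listed mouse hairpins. A match is a description of these letters and not a binding site, and hairpin lengths were not matched.

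Piranha and Pyicoclip gave the same score at most of these genes. Of the 17 pairs of overlapping peaks, 15 had equal scores, against 68.9% of all 1356 such pairs, and the exceptions, Mir296 and Mir301, differed by 1. Their positions differed more. Each Piranha peak here was a bin of 20 nt, and all 1417 Piranha peaks began on a 20-nt grid, so Piranha cannot resolve the ends of a mature microRNA. The overlap of the pairs ran from 5 nt at Mir21a to 20 nt at Mir320 and Mir541, with a median of 12 nt. The Piranha bin held the lower-coordinate end of the Pyicoclip peak in 16 of 17 pairs, against 77.7% of all pairs, and the higher-coordinate end in 0. In all 9 pairs on the minus strand that lower end is the 3′ end of the RNA. The Piranha bin of Mir21a thus reached 3 nt into miR-21a-3p although its Pyicoclip peak covered miR-21a-5p. Arms read from Piranha alone can for that reason differ from those of Pyicoclip.

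The genes found by PIPE-CLIP alone looked different. The Mir7068 cluster, chr8:72470016-72470090, was 75 nt wide with a score of 27, above 90.1% of the list. It covered the whole hairpin and 1 nt before it. The hairpin is shown with both listed mature sequences, each whole under the cluster, in capitals.
Mir7068 hairpin: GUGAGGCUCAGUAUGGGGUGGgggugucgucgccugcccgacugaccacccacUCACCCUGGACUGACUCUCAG
Mir7068 lies in the span of Cherp, a gene on the same strand, which held 1 other peak, also from PIPE-CLIP. Mir1893 lies in Epc1, a chromatin regulator gene, and 44 of the 80 nt of its cluster were inside the microRNA gene. Epc1 held 14 other peaks, 10 of them from PIPE-CLIP. Both clusters were on the minus strand, as were 2835 of the 3257 PIPE-CLIP clusters, and whether they come from the microRNA or the host transcript was not tested.

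Most of the genes lay within another gene. A protein-coding span held 16 of the 28 and a long non-coding RNA span 6 others, such as Dleu2 for Mir16-1, Mir22hg for Mir22, Ftx for Mir421 and Mirg for Mir541. The remaining 6 were in no other gene. Of 25 pairs of microRNA and host gene, 19 were on the same strand, 2 on opposite strands and 4 had no strand listed. A peak outside microRNA genes, on either strand, lay in 8 of the 22 host genes, beside 9.77% of protein-coding genes. The hosts include long non-coding RNA genes, such as E130102H24Rik among the 8. The 9.77% leaves such genes out and counts any peak, and span length was not matched, so the 2 shares are not like for like. Of the 8 hosts, 4 held a peak outside microRNA genes on their own strand, 2 (Vmp1 and Hoatz) did not, and 2 have no strand listed. Hosts such as Nsrp1, Zranb2, Ctdsp1 and Dleu2 held none, so the peaks of Mir423, Mir186, Mir26b and Mir16-1 were alone in their host spans. Pde4d, the host of Mir582, held 4 others over a span of 1301793 nt, 2 of them on its strand, and Map2k4, the host of Mir744, held 3, all on its strand.

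Genes that make and use microRNAs carried peaks in their own spans. Of 26 annotated genes of microRNA processing and Argonaute action, 13 held a peak, beside 9.77% of protein-coding genes, and span length was not matched. The Argonaute genes Ago1, Ago2 and Ago4 and the genes of their partners Tnrc6a, Tnrc6b and Tnrc6c, which recruit the deadenylation machinery, held 2 to 14 peaks each. The RNA helicase genes Ddx5 and Ddx17, whose products assist Drosha, held 9 and 2. The 13 genes without a peak included Ago3, the nuclear processing genes Drosha and Dgcr8, the export gene Xpo5, and genes that act in the cytoplasm, such as Tarbp2, Prkra, Mov10 and Dis3l2. Dicer1 held 2 PIPE-CLIP clusters. Lin28a, which blocks let-7 maturation, was the only one in all 4 lists, with 12 peaks, and Trim71, a let-7 target, held 11. PIPE-CLIP had peaks in 12 of the 26, beside 7.12% of protein-coding genes. Pyicoclip had them in 10, beside 4.54%, Piranha in 6, beside 2.89%, and CIMS in 1, beside 0.279%. Of the 28 microRNA genes described here, PIPE-CLIP had peaks in 2.

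The rule turned on the midpoint of a peak. Just outside it were Mir3063, overlapped for 81 nt by a PIPE-CLIP cluster of 188 nt, and Mir7118, overlapped for 4 nt. The Piranha bins at Mir151 and Mir363, which reached 6 and 8 nt into the genes, were also outside it. Just inside it were the Piranha bin of Mir10b, with 11 of 20 nt in the gene, and the cluster of Mir1893.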

How the data were processed

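HITS-CLIP of AGO2 was made in 3 libraries of P19 cells. The submitters' processing notes name cutadapt, Novoalign and the build mm10. For tool versions, peak caller settings and how the libraries were pooled, the answer is not given in the sources used here. The authors deposited 4 peak lists, and the deposited score of each peak has no stated unit.

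Gene spans came from a RefSeq table of GRCm38.p6, and strands, hairpins and mature sequences from RefSeq sequence tables, which held 23 of the 28 genes. A peak was placed in a gene by its midpoint, and on the arm whose mature sequence lay nearest. Members and gene lists were chosen with earlier results of these data known. Genes named were those in at least 2 lists, those of the 10 highest scores per list, Mir423, Mir101a, Mir10b, Mir541 and genes with peaks on both arms. Others were named after their values were seen. No test was run, since the lists hold no value per library. The arm and end measurements were checked on planted peaks. Seed matches in target peaks need a genome and were not run. Python 3.11.15, numpy 2.4.6, pandas 2.3.3 and matplotlib 3.10.9 were used.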

Additional observations from a re-analysis of the deposited data

How the results depend on the processing

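The number of genes with a peak stayed between 19 and 30 when peaks were placed by overlap, by 50% of their width or by strand, were limited to 60 nt, or when each list was left out in turn, against 28 as reported. In the 50% of each list with the highest scores, ties broken by file order, 16 genes remained and 9 were in at least 2 lists, against 17. Genes in 2 lists numbered 12 where the peaks had to overlap by 50% of the shorter and 17 by 1 nt, an alternative added later. By the nearest arm, over all lists, 23 peaks were counted for 5p and 17 for 3p arms. These counts include 3 peaks of Mir34c and Mir421, genes with only 1 arm listed, that covered no base of that arm. Of these, 2 were counted as 5p and 1 as 3p although each lay on the other side of its hairpin. The Mir7068 cluster was counted as 5p although it covered both arms. A gene with peaks in 2 lists was counted once for each peak. Where 10 nt of the mature sequence had to be covered, 18 and 10 were, and among the highest-scoring 50% 11 and 11. For Pyicoclip alone with 10 nt covered, chosen after seeing the data, 13 and 8 were. The higher number on 5p arms was thus not seen among the highest-scoring 50%. No paired analysis was possible because the 3 libraries form 1 group and have no values of their own.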
